A study of Mus musculus with 79 samples.

Results

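Glutamate receptors and the proteins that accompany them were followed in ribosome-bound mRNA from 5 groups of mouse dopaminoceptive neurons. The 38 members, of 25899 gene symbols in the table, were chosen by symbol alone. They are the genes of AMPA receptor subunits (Gria), kainate receptor subunits (Grik), delta receptor subunits (Grid), NMDA receptor subunits (Grin) and metabotropic receptors (Grm), with the auxiliary proteins Cnih2, Cnih3, Shisa6, Shisa7, Shisa9, Neto1 and Neto2 and the scaffold proteins Grip1, Grip2, Homer1, Homer2 and Homer3.

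The libraries came from mice carrying a bacterial artificial chromosome (BAC) transgene in which the promoter of the dopamine D1a or the D2 receptor drives L10a, a protein of the large ribosomal subunit, tagged with enhanced green fluorescent protein. Ribosomes of the cells using the promoter were pulled down with an antibody against the fluorescent protein. All mice were heterozygous for the transgene on a C57BL/6J background; the labels name no treatment and no age. Each library pooled tissue of 3 mice, with both sexes in every pool whose sexes are given in full. There were 15 libraries of D1 neurons and 16 of D2 neurons from dorsal striatum, 15 of D1 and 14 of D2 neurons from ventral striatum (nucleus accumbens), and 19 of D1 neurons from prefrontal cortex. The transgene marks every cell type of the punch that uses the receptor's promoter, so a group is not a single cell type, and in such bulk samples fewer cells of a type and less RNA per cell cannot be told apart.

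Glutamate is the main excitatory transmitter of the brain and reaches striatal projection neurons from cortex and thalamus. AMPA receptors carry the fast synaptic current. NMDA receptors open when glutamate meets a depolarised membrane and admit calcium. Kainate receptors tune release and excitability, and delta receptors act largely as synaptic organisers that bind cerebellins. Metabotropic receptors act through G proteins: group I, to which Grm5 belongs, raises calcium through Gq, while group II (Grm2, Grm3) and group III (Grm4, Grm6, Grm7, Grm8) lower cyclic AMP and often sit on terminals. D1 neurons of the striatum form mainly the direct pathway and D2 neurons the indirect pathway.

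The D1 and D2 striatal libraries matched their labels in their markers. The summed level of 4 D2 projection neuron markers (Drd2, Adora2a, Penk, Gpr6) was 2563 to 4509.7 CPM (median 3681) in D2 dorsal and 1529.7 to 2728 CPM (median 2175) in D2 ventral striatum, against at most 243 CPM (reads scaled to the library's total) in any D1 library. The 4 D1 markers (Drd1a, Pdyn, Tac1, Isl1) summed to 319 CPM or more in every D1 striatal library. They summed to at most 82.2 CPM in D2 libraries and to 14.2 to 74 CPM (median 24.6) in prefrontal cortex. The 6 markers of cortical excitatory neurons differed between the receptors. Their sum was 33.2 to 141 CPM (median 101) in D1 dorsal and 18.2 to 115 CPM (median 66.2) in D1 ventral striatum. It was 1.56 to 37.2 CPM (median 8.31) in D2 dorsal and 3.92 to 84.7 CPM (median 11.3) in D2 ventral striatum, and 567 to 923 CPM (median 639.9) in prefrontal cortex. The highest of these D2 sums was that of replicate 2 of ventral striatum. All 5 of the 5 cortical markers tested were higher in D1 than in D2 libraries of each region at an adjusted p under 0.05. Oligodendrocyte markers had medians of 73.5 and 46.7 CPM in D1 and 109.8 and 80.5 CPM in D2 dorsal and ventral striatum, and cholinergic interneuron markers reached 15.1 CPM in D2 and 2.69 CPM in D1 libraries. The part of these other cell types in the results below was not tested. The libraries carry name codes (EM, OdP, BdP, JAG) that are spread unevenly. D2 dorsal striatum held 8 EM and 8 OdP libraries and D2 ventral striatum 8 EM, 5 OdP and 1 BdP. The D1 groups held 11 to 15 EM libraries each with 2 or 3 BdP, 1 JAG and at most 1 OdP. What the codes stand for is not given in the labels. Reads in genes ran from 7.35 to 30.8 M a library. Their share of all reads was 35.4% ± 2.45 (SD) in D1 dorsal, 36.8% ± 2.01 in D2 dorsal, 35.1% ± 1.64 in D1 ventral, 38% ± 1.5 in D2 ventral striatum and 35.4% ± 2.63 in prefrontal cortex.

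Promoter windows are shown for 4 members with large differences between the groups, chosen after their values were seen: Grik3 and Neto2, lower in D1 than in D2 striatal libraries, and Cnih3 and Grm2, which separated prefrontal cortex from striatum. Each is the 250 bases before the RefSeq start (GRCm38.p6), 5′ to 3′ on the gene's strand. Capitals mark the GC box GGGCGG, an Sp1-family motif, on either strand (CCGCCC on the other), and in Cnih3 also the E-box CACGTG; the motifs do not overlap there.
Grik3 (chr4:125490446-125490695, plus strand): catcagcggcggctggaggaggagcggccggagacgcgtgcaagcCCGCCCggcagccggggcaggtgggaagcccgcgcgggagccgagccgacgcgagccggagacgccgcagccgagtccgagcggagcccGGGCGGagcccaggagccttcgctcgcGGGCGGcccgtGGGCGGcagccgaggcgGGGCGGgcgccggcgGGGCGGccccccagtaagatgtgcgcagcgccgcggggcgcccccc
Neto2 (chr8:85700925-85701174, minus strand): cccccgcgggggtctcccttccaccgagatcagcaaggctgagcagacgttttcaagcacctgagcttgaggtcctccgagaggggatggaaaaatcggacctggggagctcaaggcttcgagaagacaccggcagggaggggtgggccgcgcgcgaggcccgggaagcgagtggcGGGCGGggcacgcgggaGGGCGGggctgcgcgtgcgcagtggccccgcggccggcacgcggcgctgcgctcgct
Cnih3 (chr1:181352378-181352627, plus strand): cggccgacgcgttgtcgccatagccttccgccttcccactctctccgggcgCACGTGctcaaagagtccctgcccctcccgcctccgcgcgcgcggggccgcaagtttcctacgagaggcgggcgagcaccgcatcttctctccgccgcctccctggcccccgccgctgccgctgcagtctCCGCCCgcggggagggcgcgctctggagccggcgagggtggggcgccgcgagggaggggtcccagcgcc
Grm2 (chr9:106656110-106656359, minus strand): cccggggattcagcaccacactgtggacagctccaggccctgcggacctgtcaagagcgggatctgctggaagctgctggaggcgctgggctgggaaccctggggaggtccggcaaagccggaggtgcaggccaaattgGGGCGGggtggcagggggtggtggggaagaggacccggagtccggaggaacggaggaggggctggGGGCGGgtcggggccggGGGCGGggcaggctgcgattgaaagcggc
The 4 windows hold 6, 2, 1 and 3 GC boxes in that order, and their GC content is 82%, 72%, 76% and 71.2%, against a median of 52.4% over all windows. Of the 24 members with a window, 15 held GGGCGG, against 32.7% of all 32851 windows of that length. CACGTG was in 2 of 24 (6.02% of all), TATAAA in 1 (12.4%), the cyclic AMP response element TGACGTCA in 0 (1.55%), its shorter form TGACG in 2 (17.8%) and the NBRE motif AAAGGTCA in 0 (1.34%). Both strands were searched, and TGACG is contained in TGACGTCA. These matches describe letters in the windows only. Each member gave the 1 window nearest its GENCODE start, while the share over all windows was not limited in this way. Some member windows overlap exons of their own gene. Those of Grin2d, Grip2 and Homer1 lie 11697, 19857 and 4122 bases from the GENCODE start.

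Levels per kilobase of exon divide CPM by the joined exon length of a gene in GENCODE M21. The annotation used in counting is not given, so ranks on this scale rest on an assumed length. On it 4 members led in D1 dorsal striatum: Gria2 (24.8 CPM per kb), the obligatory NMDA subunit Grin1 (23.7), the AMPA receptor cornichon Cnih2 (22.5) and the kainate receptor partner Neto1 (22.1). Gria3 (19), Homer1 (15.1) and Gria1 (14.4) followed. In prefrontal cortex Gria3 (21.4) stood above Cnih3 (16.7), Cnih2 (16.2), Gria2 (15.6) and Grin1 (15.4). Of the kainate subunits, Grik3 led in the D2 groups (11 dorsal and 7.13 ventral) and Grik5 in the D1 groups (9.84 dorsal, 8.66 ventral and 8.39 CPM per kb in cortex). Grm5 was the leading metabotropic receptor per kilobase in each striatal group (9.67 in D1 and 13.2 in D2 dorsal, 7.87 in D1 and 11.6 in D2 ventral), while Grm3 (5.77) led in cortex. Without division by length, Grm5 (29 CPM) stood above Grm3 (17.6 CPM) in cortex, and Grik3 (49.4 CPM) above Grik5 (31.6 CPM). Grin1 shares 29.9% of its exon length with the antisense gene Grin1os, and Homer3 30.6% with Ddx49, and whether the counting used strand is not given in the sources used here, so reads of these pairs cannot be told apart.

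Grm6, the receptor of retinal bipolar cells, had 0 reads in all 79 libraries, which allows up to 0.14 CPM in the shallowest (3 reads, counting error only). Grik1, Grin2c and Grin3b stayed under 1 CPM on average in every group. These 4 members were tested in no comparison. Members tested had to reach 1 CPM in as many libraries as the smaller group holds, so those passing through 1 group alone are counted under "tested" and not as all members.

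**Figure D1:**
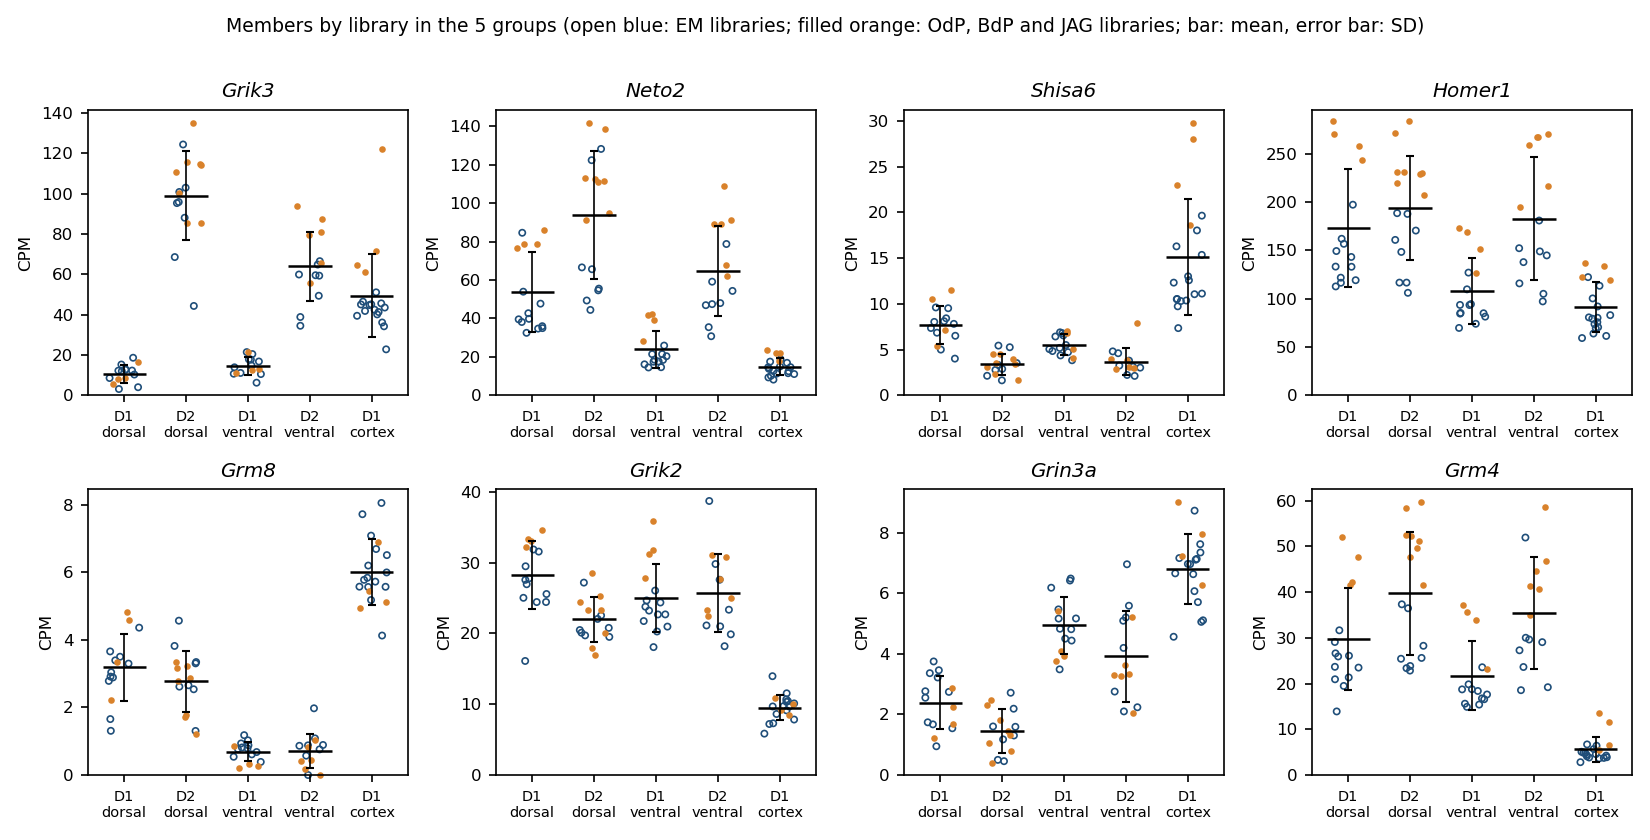
CPM of 8 members in each library of the 5 groups, with the mean and SD over libraries; EM libraries are open and libraries of the other name codes filled. Grik3 reaches at most 21.5 CPM in D1 striatal libraries, under every D2 library, and in both D2 groups the filled points of Homer1 and Grm4 lie mostly above the open ones.

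Within D2 libraries, where the codes are most balanced, several members differed between the codes, in a comparison added after the data were seen. In D2 dorsal striatum 10 of 30 members tested passed (9 lower and 1 higher in EM than in OdP libraries), against 30.2% of all genes tested, and in D2 ventral striatum 8 of 32 (7 lower and 1 higher), against 22.1%. Neto1 was 177 ± 31.7 against 324 ± 54 CPM in EM and OdP libraries of dorsal striatum (log2 -0.87 ± 0.118, adjusted p 2.2e-05) and 206 ± 36.6 against 406 ± 85.9 CPM in ventral striatum (log2 -0.97 ± 0.152, adjusted p 1.9e-04). Homer1 was 149 ± 32.9 against 238 ± 25.9 CPM and 135 ± 27.7 against 242 ± 33.7 CPM, and Grm4, a group III receptor known from striatopallidal terminals, 27.9 ± 5.81 against 51.6 ± 5.74 CPM and 28.7 ± 10.4 against 46.5 ± 7.28 CPM. Neto2 was also lower in EM libraries, by log2 -0.73 ± 0.191 in dorsal (limma, adjusted p 0.0069) and -0.76 ± 0.195 in ventral striatum (adjusted p 0.0091). Shisa7 and Grm5 were lower in EM libraries of both regions too, and Grik3 in ventral striatum only. Cnih3 was the member higher in EM libraries in both regions. Calls between groups that EM libraries alone did not give are therefore noted below.

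The first question was how D1 and D2 neurons of the same region differ. In dorsal striatum 17 of 32 members tested passed at an adjusted p under 0.05, 6 higher and 11 lower in D1 than in D2 libraries, against 25.9% of all genes tested (12.8% higher and 13% lower). Those at least 2-fold apart were Grik3 and Shisa6 (2 of 32, against 3.36%). In ventral striatum 23 of 32 passed, 7 higher and 16 lower, against 47.7% (24.1% higher and 23.6% lower). There Grik3 and Neto2 were at least 2-fold apart (3.62% of all genes). The median log2 difference of the members tested was -0.24 in dorsal and -0.25 in ventral striatum, beside 0.02 and 0.02 over all genes tested. Of the 6 striatal projection neuron markers, 0 were higher and 4 lower in D1 than in D2 dorsal striatum (median log2 -0.43), and 2 were higher and 3 lower in ventral striatum (median -0.32). Their part in the members' differences was not tested. The 2 regions use different libraries. The calls in both numbered 13, which is 76.5% of the dorsal and 56.5% of the ventral calls, and all 13 went the same way. Over all genes tested the calls in both were 73.5% of the dorsal and 38.7% of the ventral calls, and 99.1% of them went the same way.

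Grik3 (GluK3, a kainate subunit of low glutamate affinity; chr4:125490700-125714173, GRCm38, plus strand) showed the largest difference of any member in both regions. Its lowest, median and highest libraries were 3.14, 12 and 18.6 CPM in D1 and 44.3, 100.4 and 135 CPM in D2 dorsal striatum. The D1 and D2 values did not overlap in any library. The means, 10.7 ± 4.45 CPM (SD, n = 15) and 98.8 ± 22.1 CPM (n = 16), were 9.2-fold apart (log2 -3.24 ± 0.184, adjusted p 1.1e-16). Here and below, log2 differences are given ± SE and levels as means ± SD over libraries. In ventral striatum the lowest, median and highest were 6.28, 13.9 and 21.5 CPM in D1 and 34.5, 62.4 and 93.6 CPM in D2 libraries, again without overlap, with means of 14.7 ± 4.53 CPM and 63.9 ± 17.1 CPM (log2 -2.1 ± 0.152, adjusted p 2.4e-13). Members without overlap were 1 of 32 in each region, against 1.18% of all genes in dorsal and 1.34% in ventral striatum. The receptor difference of Grik3 was itself larger in dorsal than in ventral striatum: the interaction was -1.13 ± 0.248 (log2, SE), adjusted p 0.0029. It was the 1 member of 33 tested that passed there, against 2.64% of all genes (1.93% higher and 0.707% lower). Of the members, 10 had an unadjusted p under 0.05. Among EM libraries alone the interaction was -1.16 with an adjusted p of 0.059. The D2 projection neuron markers moved the same way: 4 of 4 were lower in this interaction at an adjusted p under 0.05, with a median of -2.01 beside 0.01 over all genes. Their sum in D1 libraries was 36.7 to 95.4 CPM (median 62.8) in dorsal and 101 to 243 CPM (median 131) in ventral striatum, and in D2 libraries it was the higher in dorsal striatum, as given above. Their part in the Grik3 interaction was not tested.

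Of the other kainate subunits, Grik2 (GluK2) was higher in D1 than in D2 dorsal striatum. Its lowest, median and highest libraries were 16.1, 27.8 and 34.6 CPM against 16.9, 21.4 and 28.5 CPM, with means of 28.3 ± 4.82 CPM and 22 ± 3.21 CPM (log2 0.35 ± 0.0921, adjusted p 0.0051). The groups overlapped, with 7 of the 15 D1 libraries above every D2 library. EM libraries alone gave 0.28 with an adjusted p of 0.12. In ventral striatum Grik2 did not pass (25 ± 4.82 CPM and 25.7 ± 5.57 CPM, log2 -0.03 ± 0.105, adjusted p 0.81). Grik5 (GluK5), a high-affinity subunit that works only with Grik1 to Grik3 partners, was higher in D1 than in D2 ventral striatum, at 22.9, 33.3 and 41.1 CPM against 9.17, 19.4 and 36.5 CPM (log2 0.83 ± 0.17, adjusted p 1.9e-04). Of the D2 libraries, 9 of the 14 lay below every D1 library. In dorsal striatum Grik5 did not pass (log2 0.26 ± 0.209, adjusted p 0.37), and its lowest libraries there were D1 replicates 13 (10.5 CPM) and 4 (17.9) and D2 replicates 2 (10.2) and 6 (11.2). Grik4, at 1.9 ± 0.541 CPM and 1.28 ± 0.79 CPM, passed in ventral striatum (log2 0.57 ± 0.207, adjusted p 0.024) but not in EM libraries alone (0.30, adjusted p 0.31).

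Neto2, an auxiliary subunit that slows the desensitisation of kainate receptors, was lower in D1 than in D2 neurons of both regions, alongside Grik3. Its dorsal libraries ran 32.5, 42.7 and 86.1 CPM in D1 and 44.5, 103 and 142 CPM in D2 (lowest, median, highest; means 53.7 ± 20.8 CPM and 93.9 ± 33.3 CPM; log2 -0.80 ± 0.183, adjusted p 0.0013). Its ventral libraries ran 14.5, 20.4 and 42.3 CPM in D1 and 30.8, 60.5 and 109 CPM in D2 (means 23.9 ± 9.65 CPM and 65 ± 23.4 CPM; log2 -1.43 ± 0.178, adjusted p 1.1e-07). In ventral striatum 12 of the 14 D2 libraries lay above every D1 library, and the dorsal groups overlapped more, with 10 of the 16. Neto1, the other kainate partner, passed in ventral striatum (182 ± 56.2 CPM in D1 and 293 ± 118 CPM in D2, log2 -0.64 ± 0.165, adjusted p 0.0021) and missed the threshold in dorsal striatum (185 ± 67.5 CPM and 250.5 ± 86.8 CPM, log2 -0.44 ± 0.171, adjusted p 0.051), where edgeR called it (-0.47, adjusted p 0.047). EM libraries alone and the name code as a covariate did not call Neto1 there. Its D2 dorsal level was higher in OdP than in EM libraries as given above, and D1 dorsal striatum holds no OdP library.

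AMPA receptor subunits were lower in D1 neurons wherever they passed. In dorsal striatum these were Gria1, Gria2 and Gria3 and in ventral striatum Gria2, Gria3 and Gria4, that is 3 of 4 in each region. Gria3 (GluA3) had its lowest, median and highest dorsal libraries at 42.3, 93.3 and 199 CPM in D1 and 96, 131 and 205 CPM in D2 (log2 -0.48 ± 0.151, adjusted p 0.017). The groups overlapped widely, and the highest D1 library was replicate 13, which was the lowest for Grik5. In ventral striatum Gria3 ran 49.4, 70.9 and 99.8 CPM in D1 and 63.4, 116 and 171 CPM in D2 (log2 -0.70 ± 0.131, adjusted p 6.1e-05), with 10 of the 14 D2 libraries above every D1 library. Gria2, the subunit whose edited form blocks calcium entry, was 259.9 ± 48.6 CPM in D1 and 332 ± 64.3 CPM in D2 dorsal striatum (log2 -0.35 ± 0.0997, adjusted p 0.0085) and 222 ± 30.3 CPM and 268 ± 45.5 CPM in ventral striatum (log2 -0.26 ± 0.0896, adjusted p 0.016).

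Of the AMPA receptor auxiliary proteins, Shisa6 and Shisa7 went opposite ways. Shisa6, which keeps AMPA receptors at synapses, was higher in D1 neurons, at 4.01, 7.81 and 11.6 CPM against 1.64, 3.35 and 5.44 CPM in dorsal striatum (log2 1.1 ± 0.149, adjusted p 4.4e-07). There 12 of the 15 D1 libraries exceeded every D2 library. In ventral striatum Shisa6 ran 3.84, 5.18 and 7.06 CPM and 2.13, 3.2 and 7.94 CPM (log2 0.57 ± 0.135, adjusted p 8.9e-04), and no D1 library lay above all D2 libraries, the highest of which was replicate 1 (7.94 CPM). Shisa7 was lower in D1 neurons of dorsal striatum, at 22.2, 39.3 and 63 CPM against 45.9, 65.8 and 76.2 CPM (log2 -0.58 ± 0.115, adjusted p 2.3e-04), and likewise in ventral striatum (means 40.3 ± 11.9 CPM and 56.3 ± 9.48 CPM, log2 -0.51 ± 0.119, adjusted p 7.3e-04). Cnih3, a cornichon that slows AMPA receptor closing, was lower in D1 than in D2 dorsal striatum (3.95, 10.1 and 15.9 CPM against 8.35, 13 and 19.1 CPM, log2 -0.49 ± 0.151, adjusted p 0.015). Cnih2 and Shisa9 did not pass in either region.

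NMDA receptor subunits were, where called, higher in D1 neurons: Grin2d and Grin3a in dorsal and Grin1 and Grin3a in ventral striatum (2 of 5 tested in each). Of the 5 interneuron markers tested, 3 were higher and 0 lower in D1 than in D2 dorsal striatum (median log2 1.08), and 0 were higher and 1 lower in ventral striatum (median -0.08); their part in these calls was not tested. Grin1 ran 44.3, 65.2 and 78.2 CPM in D1 and 27, 49.4 and 80.8 CPM in D2 ventral striatum (log2 0.42 ± 0.132, adjusted p 0.009). The D2 range was wider and its lowest libraries, 7 of the 14, lay below every D1 library. EM libraries alone gave 0.35 with an adjusted p of 0.11. Grin2a and Grin2b, the main partners of Grin1 in forebrain, did not pass in either region: Grin2b was 81.9 ± 21.4 CPM and 84.7 ± 18.3 CPM in dorsal striatum (log2 -0.07 ± 0.153, adjusted p 0.75). Grin3a, a subunit that limits calcium entry, was low throughout, at 2.39 ± 0.877 CPM and 1.45 ± 0.72 CPM in dorsal and 4.95 ± 0.943 CPM and 3.92 ± 1.5 CPM in ventral striatum. Grid1, a delta receptor subunit, passed in ventral striatum and not in dorsal, lower in D1 neurons; the difference between the regions did not pass. The Grid1 call was lost without D2 ventral replicate 2 (adjusted p 0.053) or 1 (0.063) or D1 ventral replicate 3 (0.052), and that of Grin3a without D2 ventral replicate 2 (0.072).

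The metabotropic receptors Grm5, Grm3 and Grm7 were lower in D1 neurons of dorsal striatum, and so were these and Grm4 in ventral striatum. The ventral Grm7 call was lost in edgeR (-0.28, adjusted p 0.064), without D1 ventral replicate 3 (adjusted p 0.0578) and without D2 ventral replicate 1 (0.0598). Grm5 was 78.7 ± 16.4 CPM against 108 ± 20.8 CPM in dorsal (log2 -0.45 ± 0.102, adjusted p 1.0e-03) and 64.1 ± 15.3 CPM against 94.3 ± 27.8 CPM in ventral striatum (log2 -0.53 ± 0.134, adjusted p 0.0019). Grm4 ran 14.9, 18.7 and 37.1 CPM in D1 and 18.6, 32.5 and 58.7 CPM in D2 ventral striatum (log2 -0.68 ± 0.162, adjusted p 9.9e-04); its groups overlapped, and it was higher in OdP than in EM libraries as given above. Of the scaffold proteins, Homer1, which ties group I receptors to intracellular calcium stores, ran 69.8, 93.6 and 173 CPM and 97.2, 167 and 270.3 CPM in ventral striatum (log2 -0.73 ± 0.16, adjusted p 3.9e-04). It was 173 ± 61 CPM and 194 ± 53.9 CPM in dorsal striatum, where it did not pass (log2 -0.18 ± 0.154, adjusted p 0.41). Grip1, a PDZ scaffold that binds Gria2 and Gria3, was lower and its relative Grip2 higher in D1 neurons of both regions, Grip1 at 4.97 ± 1.34 CPM against 6.52 ± 0.834 CPM in dorsal striatum. Grip2 stayed under 5 CPM in every library there. Homer3 was higher in D1 neurons of both regions, also under 5 CPM on average, but neither call held in the fit below that adjusts for the percentage of reads in genes.

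The D1 and D2 groups of ventral striatum differed in the percentage of reads that fell in genes. A fit that adjusts for it called 3 members, Grik3 (-2.16), Neto2 (-0.72) and Shisa6 (0.66), and 10.7% of all genes tested. Gria2 then went from -0.26 to 0.09 (adjusted p 0.54) and Homer3 from 0.64 to -0.02 (adjusted p 0.97). The same adjustment in dorsal striatum kept 13 of the 17 calls, and lost Gria3, Grm3, Grip2 and Homer3. EM libraries alone called 18 of the 23 members in ventral striatum, all in the same direction (40.1% of all genes), and 8 of the 17 in dorsal striatum (Gria2, Grik3, Grm5, Cnih3, Shisa6, Shisa7, Neto2, Homer3), where 12.3% of all genes passed. The ventral calls not given by EM libraries alone were Grid1 (-0.36, adjusted p 0.061), Grin3a (0.33, adjusted p 0.14) and Grip2 (0.47, adjusted p 0.058), beside Grin1 and Grik4 above. The dorsal ones were Gria1 (-0.46, adjusted p 0.09), Gria3 (-0.58, adjusted p 0.086), Grin2d (0.38, adjusted p 0.21), Grin3a (0.68, adjusted p 0.072), Grm3 (-0.30, adjusted p 0.11), Grm7 (-0.33, adjusted p 0.15), Grip1 (-0.38, adjusted p 0.064) and Grip2 (0.49, adjusted p 0.27), beside Grik2.

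**Figure D2:**
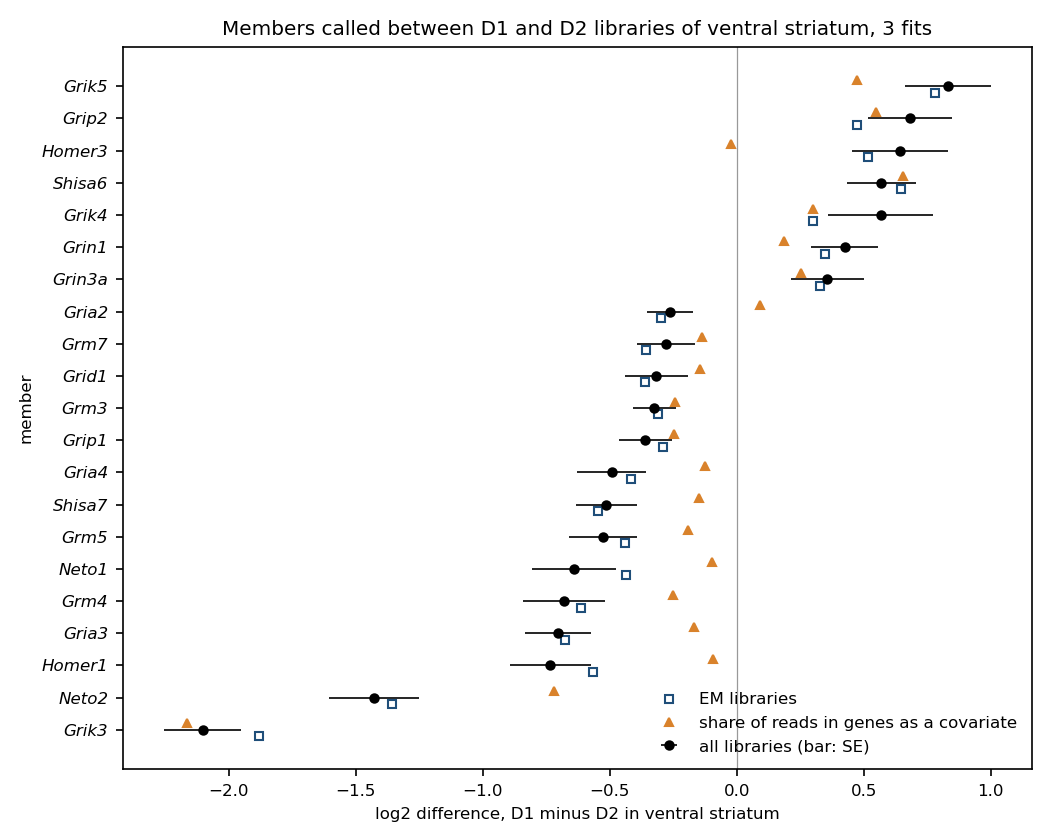
The log2 difference (D1 minus D2 in ventral striatum, horizontal axis) of 21 of the 23 members called, from all libraries with the SE, from EM libraries alone, and adjusted for the percentage of reads in genes. Grik3 and Neto2 lie at -2.1 and -1.43 in the first and at -2.16 and -0.72 in the last, and 19 of the 21 lie closer to 0 in the last than in the first.

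The second question was how the regions differ within neurons of one receptor. In D1 neurons 18 of 33 members tested differed between dorsal and ventral striatum, 12 higher and 6 lower in dorsal, against 34.6% of all genes tested (10.1% higher and 24.5% lower). In D2 neurons 16 of 32 differed, 11 higher and 5 lower, against 28.5% (7.93% higher and 20.6% lower). At least 2-fold were 3 of 33 in D1 (among them Grm8 and Neto2; 3.45% of all genes) and 2 of 32 in D2 neurons (Grm8, Grin3a; 4.15%). The median log2 difference of the members tested was 0.14 in D1 and 0.16 in D2 neurons, beside -0.12 and -0.12 over all genes tested, a shift of the whole table towards ventral striatum against which the members' values are to be read. Under quantile normalization the split became 15 higher and 4 lower in D1 neurons, and under median-ratio scaling 14 higher and 2 lower in D2 neurons. Median-ratio scaling called 21 members in D1 neurons and quantile normalization 15 in D2 neurons, with the split of these not given here. Within the name codes, EM libraries alone called 10 members in D2 neurons (19.8% of all genes) and OdP libraries alone 14 (18.5%). In D2 neurons EM libraries alone did not call, among others, Grin2b (0.50, adjusted p 0.1), Cnih3 (0.34, adjusted p 0.18), Neto2 (0.49, adjusted p 0.13) or Grip2 (-0.73, adjusted p 0.092), and in D1 neurons they did not call Grik4 (-0.48, adjusted p 0.085) or Grik3. Cell type markers moved with the regions too. Striatal projection neuron markers were higher in dorsal striatum in 5 of 6 tested in D1 and 6 of 6 in D2 neurons. Of the 5 interneuron markers tested, 3 were higher and 2 lower in dorsal striatum in D1 neurons, and 0 were higher and 4 lower in D2 neurons (median log2 -0.89). In D1 neurons cortical excitatory markers were higher in dorsal striatum in 2 of 5 tested (median 0.66), oligodendrocyte markers in 3 of 3 (median 0.58), and D2 projection neuron markers were lower in 4 of 4 (median -1.21). In D2 neurons these lists had 0 of 3, 1 of 5 and 4 of 4 markers higher and 0 lower. The interneuron sums were 21 to 59.6 CPM (median 37.2) in D1 dorsal, 23.4 to 45.4 CPM (median 28.5) in D1 ventral, 7.03 to 29.6 CPM (median 14.1) in D2 dorsal and 24.6 to 46.9 CPM (median 33.7) in D2 ventral striatum. The part of these cells in the region differences was not tested. The D1 and D2 comparisons use different libraries, which are also those of the receptor comparisons above. Members called in both numbered 10, which is 55.6% of the D1 and 62.5% of the D2 calls; 9 went the same way and Grik3 did not. Over all genes tested these shares were 51.4% and 63.2%, with 98.4% going the same way.

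Of the metabotropic receptors, Grm8, Grm5 and Grm4 were higher in dorsal striatum in D1 neurons, and Grm8 also in D2 neurons. Grm8 (mGluR8) was low in level and falls outside the naming rule of 5 CPM; it was singled out after its values were seen. It was 3.19 ± 0.985 CPM in dorsal and 0.687 ± 0.287 CPM in ventral D1 libraries, without overlap (log2 1.62 ± 0.147, adjusted p 5.4e-11), and 2.77 ± 0.909 CPM and 0.708 ± 0.513 CPM in D2 libraries (log2 1.5 ± 0.198, adjusted p 2.2e-07). Members without overlap were 2 of 33 in D1 neurons and 0 of 32 in D2 neurons, against 2.65% and 1.46% of all genes. Grm5 and Grm4 were higher in dorsal striatum in D1 neurons by 0.30 and 0.42 on the log2 scale, and missed the threshold in D2 neurons (0.23 and 0.16). Both D1 calls were lost without D1 ventral replicate 3 (adjusted p 0.053 and 0.066). Grm3 was lower in dorsal than in ventral striatum in D2 neurons (18.7, 22.3 and 29.3 CPM against 19.9, 26.8 and 34.7 CPM, log2 -0.29 ± 0.0827, adjusted p 0.0073); EM libraries alone gave -0.20 (adjusted p 0.24), and edgeR on all libraries gave -0.16 (adjusted p 0.18).

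Of the 5 NMDA receptor subunits tested, 1 was higher and 2 lower in dorsal striatum in D1 neurons, and 3 were higher and 2 lower in D2 neurons. Grin1 was higher in dorsal striatum in both receptors: 60.3, 104 and 136 CPM against 44.3, 65.2 and 78.2 CPM in D1 (log2 0.68 ± 0.0987, adjusted p 1.1e-06) and 37.4, 103 and 126 CPM against 27, 49.4 and 80.8 CPM in D2 neurons (log2 0.95 ± 0.165, adjusted p 2.6e-05). In D1 neurons 13 of the 15 dorsal libraries exceeded every ventral library. Grin2a followed in D2 neurons, at 20.8, 31.4 and 39.6 CPM against 3.46, 17.7 and 24.6 CPM (log2 1.00 ± 0.172, adjusted p 2.4e-05), and Grin2b with 0.49, a call that EM libraries alone did not give. In D1 neurons Grin2a (0.43 ± 0.201, adjusted p 0.097) and Grin2b (0.32 ± 0.136, adjusted p 0.068) did not pass in limma, and edgeR called both (0.68, adjusted p 0.0043, and 0.47, adjusted p 0.0045). Grin3a and Grin2d, subunits of low conductance channels, were lower in dorsal striatum in both receptors, where interneuron markers were lower in D2 neurons as given above. Grin3a was 2.39 ± 0.877 CPM against 4.95 ± 0.943 CPM in D1 (log2 -0.96 ± 0.137, adjusted p 7.9e-07) and 1.45 ± 0.72 CPM against 3.92 ± 1.5 CPM in D2 neurons (log2 -1.21 ± 0.194, adjusted p 8.1e-06). Grin2d was 1.57 ± 0.523 CPM against 2.44 ± 0.454 CPM and 1.0 ± 0.422 CPM against 2.55 ± 1.61 CPM. In D1 neurons 14 of the 15 dorsal libraries lay below every ventral library for Grin3a.

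The kainate subunit Grik3 went opposite ways, which is the interaction given above seen from the regions. In D1 neurons it was lower in dorsal striatum (-0.50 ± 0.198, adjusted p 0.049) and in D2 neurons higher (log2 0.63 ± 0.138, adjusted p 5.4e-04). The D1 difference was not called by edgeR (-0.34, adjusted p 0.2), in EM libraries alone (-0.46, adjusted p 0.15) or without D1 dorsal replicate 13 (adjusted p 0.08). The D2 difference was called in EM libraries too (0.71, adjusted p 0.011). Grik5 in D2 neurons ran 10.2, 32.7 and 51.4 CPM in dorsal and 9.17, 19.4 and 36.5 CPM in ventral striatum (log2 0.67 ± 0.22, adjusted p 0.019); the ranges overlapped widely, and EM libraries alone gave 0.48 (adjusted p 0.33).

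Neto2 was higher in dorsal striatum, at 32.5, 42.7 and 86.1 CPM against 14.5, 20.4 and 42.3 CPM in D1 neurons (log2 1.15 ± 0.176, adjusted p 3.0e-06), where 12 of the 15 ventral libraries lay below every dorsal one. In D2 neurons it was 93.9 ± 33.3 CPM against 65 ± 23.4 CPM (log2 0.52 ± 0.186, adjusted p 0.032), a call lost without D2 ventral replicate 2 (adjusted p 0.052) or 7 (adjusted p 0.052). Homer1 in D1 neurons ran 113, 149 and 284 CPM and 69.8, 93.6 and 173 CPM (log2 0.67 ± 0.152, adjusted p 7.9e-04) and did not pass in D2 neurons (log2 0.11 ± 0.162, adjusted p 0.66). Gria4 (GluA4) was higher in dorsal striatum in D1 neurons, at 13, 16.4 and 25 CPM against 7.48, 10.8 and 15.5 CPM (log2 0.61 ± 0.11, adjusted p 3.9e-05), with 10 of the 15 dorsal libraries above every ventral one. Gria3 was also higher (0.50), and in D2 neurons Gria2 was the AMPA subunit that passed in limma (log2 0.30 ± 0.101, adjusted p 0.021), while edgeR also called Gria1 (0.44, adjusted p 0.0041) and Gria3 (0.39, adjusted p 0.041). Grip2 was lower in dorsal striatum in both receptors, but its D2 call was lost in edgeR (-0.67, adjusted p 0.15), in EM libraries alone, with the name code as a covariate (-0.54, adjusted p 0.056) and without D2 ventral replicate 2 (adjusted p 0.0517) or 1 (0.0535). Grip1 was lower in both too and ran 2.61, 4.56 and 7.92 CPM against 5.49, 6.46 and 9.44 CPM in D1 (log2 -0.43 ± 0.109, adjusted p 0.0022) and 5.17, 6.38 and 7.84 CPM against 6.36, 8.88 and 12.7 CPM in D2 neurons (log2 -0.40 ± 0.102, adjusted p 0.0027). Grid1 was higher in dorsal striatum in D1 neurons (0.38).

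**Figure D3:**
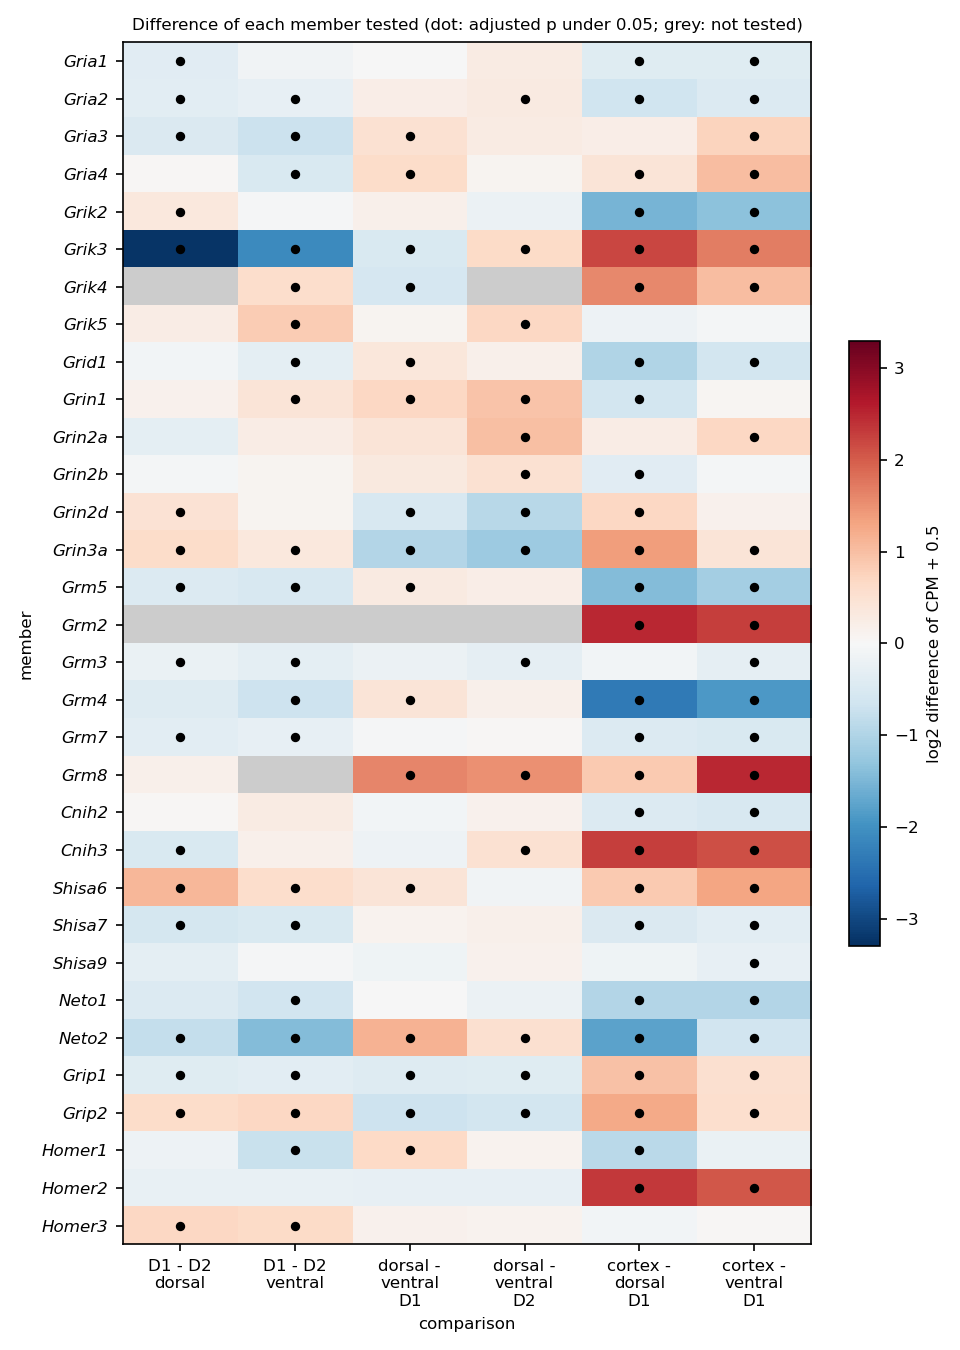
The log2 difference of 32 of the 34 members tested (rows) in the 6 comparisons between groups (columns), with a dot where the adjusted p was under 0.05. Prefrontal cortex columns hold the deepest colours next to Grik3, from Grm4 at -2.32 to Grm2 at 2.49 against dorsal striatum.

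The third question was how D1 neurons of prefrontal cortex differ from those of striatum. Against dorsal striatum 28 of 34 members tested passed, 12 higher and 16 lower in cortex, against 54.8% of all genes tested (32.3% higher and 22.5% lower). Against ventral striatum 27 of 34 passed, 13 higher and 14 lower, with 62.8% of all genes (27.7% higher and 35.1% lower). At least 2-fold were 12 of 34 against dorsal (16% of all genes) and 11 of 34 against ventral striatum (14.2%). Members without overlap numbered 11 (10.5% of all genes) and 10 (12.6%). Both comparisons use the same cortex libraries, so their values are given side by side and not as 2 findings. The median log2 difference of the members tested was -0.15 and -0.06, beside 0.05 and -0.07 over all genes.

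Grm2 (mGluR2; chr9:106643095-106656082, minus strand), a group II receptor found mainly on terminals, was the member with the largest rise against dorsal striatum. It ran 2.63, 6.48 and 9.79 CPM in cortex, 0.146, 0.588 and 2.24 CPM in dorsal and 0.154, 0.78 and 1.8 CPM in ventral D1 libraries. The cortex libraries lay above all striatal ones (log2 2.49 ± 0.174, adjusted p 5.7e-16, and log2 2.28 ± 0.157, adjusted p 2.3e-16). Grm8 was 4.13, 5.78 and 8.05 CPM in cortex against 0.212, 0.772 and 1.18 CPM in ventral striatum (log2 2.48 ± 0.106, adjusted p 4.1e-23), and it was also higher than in dorsal striatum (log2 0.86 ± 0.116, adjusted p 3.2e-08). Every cortex library exceeded every ventral striatal library for Grm8. Homer2 (chr7:81600481-81707527, minus strand), a scaffold of group I receptors, ran 20.3, 32.1 and 41.8 CPM in cortex, 3.01, 5.51 and 9.42 CPM in dorsal and 3.52, 6.69 and 14 CPM in ventral striatum (log2 2.34 ± 0.116, adjusted p 1.5e-20, and log2 2.05 ± 0.138, adjusted p 1.1e-16).

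Cnih3 (chr1:181352628-181460641, plus strand) ran 35, 46.6 and 58.1 CPM in cortex, 3.95, 10.1 and 15.9 CPM in dorsal and 4.87, 11.6 and 16.3 CPM in ventral striatum (log2 2.29 ± 0.125, adjusted p 2.7e-19, and log2 2.13 ± 0.115, adjusted p 9.4e-20). The cortex libraries were all higher. Grik3 ran 22.8, 44.8 and 122 CPM in cortex, and all 19 cortex libraries lay above the D1 striatal ones (log2 2.2 ± 0.186, adjusted p 1.7e-13, and log2 1.7 ± 0.152, adjusted p 6.2e-13). Its highest cortex library, replicate 19 at 122 CPM, stood apart from the next at 71.3 CPM. Grin3a ran 4.56, 6.97 and 9.0 CPM in cortex and 0.949, 2.55 and 3.75 CPM in dorsal striatum without overlap (log2 1.39 ± 0.126, adjusted p 1.2e-12), and its log2 difference from ventral striatum was 0.43. Grik4, Grip1, Grip2, Shisa6 and Gria4 were higher in cortex against both regions, by 1.58, 0.96, 1.26, 0.87 and 0.42 against dorsal and 1.01, 0.53, 0.57, 1.3 and 1.03 against ventral striatum on the log2 scale.

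Grm4 (mGluR4; chr17:27422387-27521403, minus strand) was the member with the largest fall in cortex. It ran 2.81, 4.78 and 13.6 CPM in cortex, 13.9, 26.1 and 52.1 CPM in dorsal and 14.9, 18.7 and 37.1 CPM in ventral striatum (log2 -2.32 ± 0.168, adjusted p 1.5e-15, and log2 -1.9 ± 0.155, adjusted p 4.5e-14). No cortex library reached a striatal one. Grik2 ran 5.85, 9.69 and 14 CPM in cortex, 16.1, 27.8 and 34.6 CPM in dorsal and 18.1, 23.8 and 35.9 CPM in ventral striatum, again without overlap (log2 -1.52 ± 0.096, adjusted p 2.4e-17, and log2 -1.35 ± 0.0912, adjusted p 1.3e-16). Grm5 ran 18.7, 28 and 42.6 CPM in cortex, 56, 72 and 106 CPM in dorsal and 44.1, 60.0 and 101 CPM in ventral striatum (log2 -1.42 ± 0.0983, adjusted p 4.0e-16, and log2 -1.12 ± 0.0987, adjusted p 3.9e-13), with cortex below both throughout.

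Neto2 was lower in cortex (8.2, 14.6 and 23.4 CPM) than in dorsal striatum, without overlap (log2 -1.77 ± 0.153, adjusted p 2.8e-13), and than in ventral striatum, with overlap (log2 -0.62 ± 0.148, adjusted p 3.6e-04). Neto1 ran 65.5, 87.8 and 134 CPM in cortex, 96.9, 151 and 297 CPM in dorsal and 131, 156 and 295 CPM in ventral striatum (log2 -0.97 ± 0.133, adjusted p 4.6e-08, and log2 -0.97 ± 0.113, adjusted p 7.5e-10). Gria1, Gria2, Grid1, Grm7, Shisa7 and Cnih2 were lower in cortex against both regions, between -0.98 (Grid1, against dorsal) and -0.36 (Shisa7, against ventral striatum). Grin2b was lower in cortex than in dorsal striatum (log2 -0.37 ± 0.141, adjusted p 0.023), a call that EM libraries alone did not give (-0.31, adjusted p 0.1). Cortical excitatory neuron markers moved with these comparisons as given above. The 6 striatal projection neuron markers summed to 153 to 483 CPM (median 169) in cortex against 1639 CPM or more in every D1 striatal library. Astrocyte markers summed to 9.4 to 55.4 CPM (median 25.1) in cortex against at most 15.9 CPM in striatum. Interneuron markers summed to 98.8 to 260.5 CPM (median 164) against at most 59.6 CPM; their part in the results was not tested.

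Ratios of 2 members within a library cancel its scaling, apart from the 0.5 CPM added to each member before the ratio was formed. That addition weighs most on low members. Of 8 ratios in 6 comparisons, each mean log2 ratio was tested by a two-sided permutation test with 100000 resamples and adjusted over the 48 tests. The smallest p these resamples can give is 2e-05, or 5.3e-05 adjusted. Of the 48 differences, 26 passed. Neto1 over Neto2 was 1.78 ± 0.26 in D1 and 1.43 ± 0.28 in D2 dorsal, 2.94 ± 0.17 in D1 and 2.15 ± 0.19 in D2 ventral striatum, and 2.59 ± 0.20 in cortex (log2, mean ± SD). The ventral D1 libraries (2.59 to 3.19) overlapped neither the ventral D2 (1.83 to 2.42) nor the dorsal D1 libraries (1.01 to 2.07), and both differences reached the smallest adjusted p in permutation tests. Of the ratios below, each said to differ between cortex and D1 striatum had an adjusted permutation p of 5.3e-05. Cnih2 over Cnih3 was -1.1 ± 0.48 in cortex and 1.63 ± 0.94 and 1.57 ± 0.69 in dorsal and ventral D1 striatum, without overlap.

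Homer2 over Homer1 was -1.51 ± 0.44 in cortex, -4.74 ± 0.73 in dorsal and -3.79 ± 0.79 in ventral D1 striatum, also without overlap. Grin2b over Grin2a, whose balance changes with development in many neurons, was 1.01 ± 0.21 in cortex, 1.63 ± 0.36 in dorsal and 1.74 ± 0.15 in ventral D1 striatum. It was also lower in dorsal (1.38 ± 0.24) than in ventral D2 striatum (1.89 ± 0.50), with a log2 difference of -0.51 ± 0.15 (SE; permutation test, adjusted p 8.2e-04). Gria3 and Gria4 over Gria2 were higher in cortex than in both D1 striatal groups. Gria3 over Gria2 was -0.50 ± 0.21 in cortex, -1.39 ± 0.30 in dorsal and -1.67 ± 0.15 in ventral striatum. Gria1 over Gria2 passed in no comparison. Its largest difference, cortex minus dorsal striatum, was 0.26 ± 0.14 (SE; permutation test, adjusted p 0.099), and its spread in D2 dorsal striatum was -2.94 to -1.05. Grik2 over Grik5 was lower in cortex (-1.65 ± 0.54) than in dorsal (-0.31 ± 0.57) and ventral D1 striatum (-0.38 ± 0.27).

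**Figure D4:**
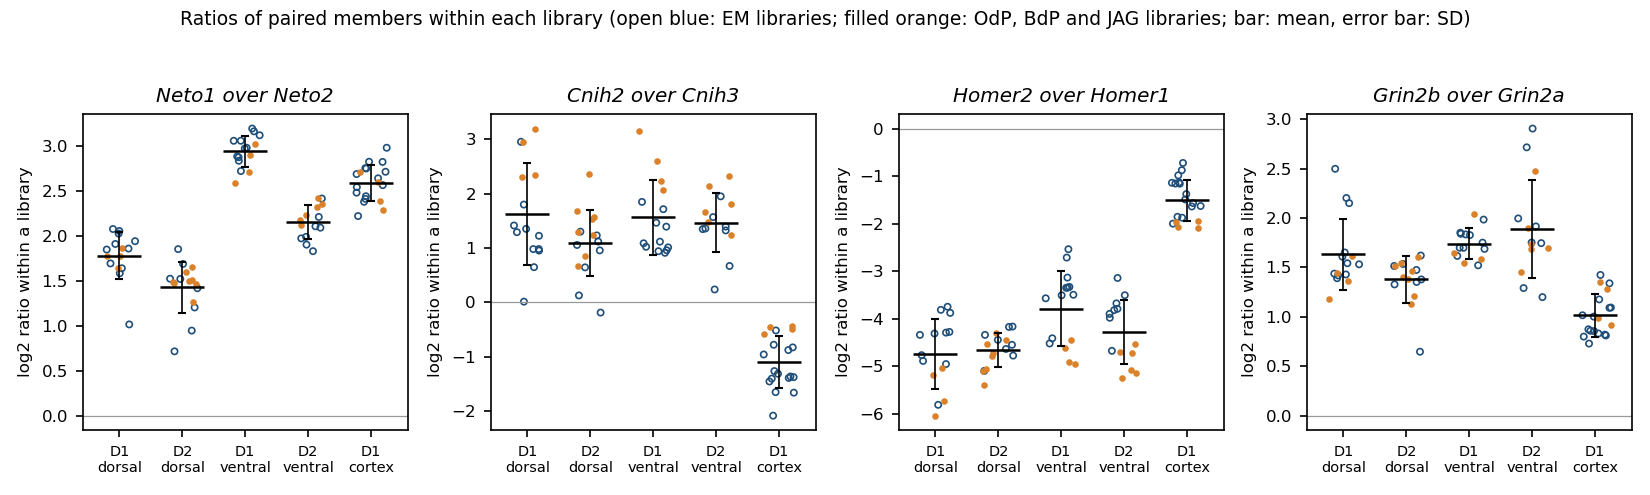
Log2 ratios of 4 member pairs in each library of the 5 groups, with the mean and SD; EM libraries are open. Neto1 over Neto2 is highest in D1 ventral striatum (2.94 ± 0.17), and Cnih2 over Cnih3 lies below 0 in the cortex libraries, from -2.08 to -0.43.

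Partner genes of the receptors were taken from lists beside the members, and the counts below are of genes with an adjusted p under 0.05. The medians of each list follow the order D1 minus D2 in dorsal and ventral striatum, dorsal minus ventral in D1 and D2 neurons, and cortex minus dorsal and ventral striatum; over all genes tested they were 0.02, 0.02, -0.12, -0.12, 0.05 and -0.07 on the log2 scale. In that order 12.8%, 24.1%, 10.1%, 7.93%, 32.3% and 27.7% of all genes tested were called higher and 13%, 23.6%, 24.5%, 20.6%, 22.5% and 35.1% lower, against which the counts are to be read; a share near these is no result about a list. Of 7 genes of transmembrane AMPA receptor regulatory proteins (TARPs) and Gsg1l, 2 of 7 tested were higher and 0 lower in D1 than in D2 dorsal striatum and 1 of 7 tested was higher and 3 lower in ventral striatum. Between the regions, 4 of 7 tested were higher and 0 lower in dorsal striatum in D1 neurons, and in D2 neurons 3 of 7 tested were higher and 1 lower. In cortex 2 of 7 tested were higher and 3 lower against dorsal striatum, and 2 of 7 tested were higher and 2 lower against ventral striatum. The list's median log2 differences were -0.07, -0.05, 0.34, 0.33, -0.15 and -0.22. Cacng4 fell in cortex, from 60.9 ± 16.4 CPM in dorsal striatum to 7.76 ± 2.36 CPM (-2.9 ± 0.126, adjusted p 2.7e-22), and Gsg1l fell too (-1.19 ± 0.085, adjusted p 1.0e-15). Cacng2 (stargazin) was higher in cortex than in ventral striatum (0.80 ± 0.0831, adjusted p 3.7e-11). Of 13 postsynaptic scaffolds, 2 of 13 tested were higher and 1 lower in D1 than in D2 dorsal striatum and 6 of 13 tested were higher and 1 lower in ventral striatum. Between the regions, 0 of 13 tested were higher and 5 lower in dorsal striatum in D1 neurons, and in D2 neurons 1 of 13 tested was higher and 4 lower. In cortex 4 of 13 tested were higher and 5 lower against dorsal striatum, and 2 of 13 tested were higher and 8 lower against ventral striatum. Their median log2 differences were 0.08, 0.34, -0.22, -0.11, -0.15 and -0.31. Shank1 was 57.3 ± 20.6 against 21.8 ± 5.98 CPM in D1 and D2 dorsal striatum (1.32 ± 0.18, adjusted p 4.7e-07), and Dlgap1 264 ± 34.1 against 64 ± 12.9 CPM in cortex and dorsal striatum (2.06 ± 0.0886, adjusted p 2.0e-22).

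Of 12 secreted and adhesion partners, among them the cerebellins that bind delta receptors and the pentraxins that gather AMPA receptors, 7 of 10 tested were higher and 1 lower in D1 than in D2 dorsal striatum and 5 of 9 tested were higher and 2 lower in ventral striatum. Between the regions, 8 of 11 tested were higher and 1 lower in dorsal striatum in D1 neurons, and in D2 neurons 3 of 8 tested were higher and 1 lower. In cortex 8 of 11 tested were higher and 2 lower against dorsal striatum, and 8 of 11 tested were higher and 1 lower against ventral striatum. Their median log2 differences were 1.4, 0.56, 0.50, 0.21, 1.24 and 1.34. The cortical excitatory neuron markers were higher in the same receptor and cortex comparisons, in 5 of 5 tested in each, with medians of 3.1 and 2.05 between the receptors in dorsal and ventral striatum and 2.82 and 3.48 in cortex against these regions. In dorsal against ventral D1 striatum 2 of 5 were higher and 0 lower (median 0.66). Their part in the counts of this list was not tested. C1ql3 (3.02 ± 0.211, adjusted p 5.1e-16) and Cbln2 (3.0 ± 0.117, adjusted p 8.4e-24) led in cortex, and Cbln4 was 0.167 ± 0.182 against 4.84 ± 2.34 CPM in dorsal and ventral D2 striatum (-2.9 ± 0.193, adjusted p 2.4e-14). Of the 3 RNA editing enzymes, 2 of 3 tested were higher and 0 lower in D1 than in D2 dorsal striatum and 3 of 3 tested were higher and 0 lower in ventral striatum. Between the regions, 0 of 3 tested were higher and 2 lower in dorsal striatum in D1 neurons, and in D2 neurons 0 of 3 tested were higher and 1 lower. In cortex 3 of 3 tested were higher and 0 lower against dorsal striatum, and 1 of 3 tested was higher and 0 lower against ventral striatum. Their median log2 differences were 0.31, 0.43, -0.31, -0.20, 0.33 and 0.11. Adarb2, a family member without known catalytic activity, was 38.7 ± 9.78 against 5.97 ± 1.56 CPM in cortex and dorsal striatum (2.6 ± 0.125, adjusted p 5.5e-21) and higher in D1 than in D2 dorsal striatum (1.48 ± 0.207, adjusted p 7.8e-07). Adarb1, which edits Gria2, was 66.2 ± 10.3 against 53.2 ± 11.4 CPM in cortex and dorsal striatum (0.33 ± 0.101, adjusted p 0.0056). Cacng2, Cbln4 and Adarb1 were singled out after their values were seen.

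Each pool held 1 or 2 males, for the 77 libraries whose label gives the sex of all 3 mice. With the group as a covariate, 0 of 34 members tested differed between pools with 2 males and 1 male, against 0.0651% of all genes, and 8 had an unadjusted p under 0.05 in limma.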

How the data were processed

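Ribosome-bound mRNA of 79 libraries was amplified with the Ovation V2 kit and sequenced as 50-base pairs, per the labels' protocols. Trim Galore 0.4.2, cutadapt 1.9.1, FastQC and HISAT2 0.12.2 on GRCm38 are named per the submitters' processing notes; the counting program and annotation are not given in the sources used here. The deposited values are CPM, made by the authors; 100% of values above 0 came out as whole reads (tolerance 0.001 reads). Reads in listed genes were about 36.1% of the total behind the CPM. Amplified reads are not independent molecules.

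Differences were tested with limma 3.58.1 (R 4.3.3; lmFit, eBayes with trend) on log2(CPM + 0.5), a scale that understates changes of low genes, over all genes with at least 1 CPM in as many libraries as the smaller group holds. Adjusted p-values are Benjamini-Hochberg values over all genes tested and calls are at 0.05; the tests are two-sided. edgeR 4.0.16 on recovered reads, 2 other pseudocounts, other scalings, no filter, EM libraries alone, code or share covariates, array weights, left-out libraries and a block by sets of consecutive EM names were the alternatives. Tests were also run on simulated counts with the same spread for all genes and no difference between name codes. That run cannot show how the tests behave where the codes differ. Lengths and positions came from GENCODE M21 (38 of 38 members matched) and promoters from RefSeq GRCm38.p6 (24 matched).

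The members, lists and tests were chosen with earlier results of these data known. Lowest, median and highest libraries are given for the 5 largest calls each way among members averaging 5 CPM or more in their higher group; Grm8 between the striatal regions and the Grik5 libraries in dorsal striatum were named after their values were seen. Nothing beyond the pooling says that pools were independent, so p-values measure the spread between these pools. Groups came from the labels' tissue and cell type; 2 libraries without the sex of all 3 mice were left out of the sex comparison. Python 3.11.15, numpy 2.4.6, pandas 2.3.3, scipy 1.17.1 and matplotlib 3.10.9 were also used. Counts cover all members, of which 2 are not reported here by name or plotted.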

Additional observations from a re-analysis of the deposited data

Results flagged for a closer look

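Grik3 differed between D1 and D2 neurons by more in dorsal than in ventral striatum. The test of the difference between the regions gave -1.13 on the log2 scale (SE 0.248), with an adjusted p of 0.0029 in limma over all genes tested. All 16 D2 dorsal and all 14 D2 ventral libraries lay above every D1 library of their region. The 4 D2 projection neuron markers moved the same way in this test (4 of 4 lower, median -2.01), and their sum in D1 libraries was 63.3 ± 17.4 CPM (SD, n = 15) in dorsal and 148 ± 46.2 CPM (n = 15) in ventral striatum. Their part in the Grik3 result was not tested.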

How the results depend on the processing

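Counts of called members moved by over 1.5 times under these settings. In D1 minus D2 of dorsal striatum, EM libraries alone gave 9 and the name code as a covariate 11, and in dorsal minus ventral D2 striatum EM libraries alone gave 10. In ventral striatum adjusting for the percentage of reads in genes left 3, where Gria2 reversed to 0.091 (adjusted p 0.54) and Homer3 to -0.021 (adjusted p 0.97); this percentage differs between these groups, so it and the receptor cannot be told apart there. For the difference between the regions, EM libraries alone gave 0 (limma, 8 at an unadjusted p under 0.05; edgeR on all libraries gave 1), the name code 5 (Cnih3, Gria4, Grik3, Homer1, Neto2) and array weights 3 (Gria4, Grik2, Grik3). For males in the pool EM libraries alone gave 1 (Gria2). Of 130 called differences, 121 passed in edgeR too, 117 under quantile normalization, 122 with no filter, and 122 scaled to reads in genes. With the name code as a covariate 120 passed. Adjusting for the percentage of reads in genes left 105, while 23 kept only their direction and 2 reversed. Outside the receptor comparison of ventral striatum, this adjustment lost Gria3, Grm3, Grip2 and Homer3 between the receptors in dorsal striatum. It also lost Grik5 between regions in D2 neurons. Libraries left out one at a time were chosen after seeing the data, 2 for marker sums (D2 ventral replicate 2, cortex replicate 6) and 7 as the lowest of their group in Grik5 or Grik3. The counts then ran from 16 to 19 and 20 to 23 between the receptors in dorsal and ventral striatum, 17 to 20 and 14 to 17 between regions in D1 and D2 neurons, 28 to 29 and 26 to 27 for cortex, and stayed at 1 for the difference between the regions. Calls lost so, with the adjusted p, were as follows. Between receptors in dorsal striatum these were Grm3 without D2 dorsal replicate 2 (0.0726) and Grip2 without replicate 6 (0.0516). In ventral striatum they were Grid1 (0.0534, 0.0634 and 0.052) without D2 ventral replicates 2 and 1 and D1 ventral replicate 3, Grin3a without D2 ventral replicates 2 (0.0721) and 1 (0.0502), and Grm7 without D1 ventral replicate 3 (0.0578) and D2 ventral replicate 1 (0.0598). Between regions they were Grik3 without D1 dorsal replicate 13 (0.080), Grm5 (0.053) and Grm4 (0.066) without D1 ventral replicate 3, Cnih3 without D2 ventral replicate 1 (0.054), Neto2 without D2 ventral replicates 2 (0.052) and 7 (0.052), and Grip2 without replicates 2 (0.052) and 1 (0.054). In cortex against ventral striatum it was Shisa9 without cortex replicate 10 (0.055). edgeR did not call Grip2 (adjusted p 0.081) between the receptors in dorsal striatum, Grik4 (0.11), Grin3a (0.063) and Grm7 (0.064) in ventral striatum, Grik3 (0.2) and Grik4 (0.14) between regions in D1 and Grm3 (0.18) and Grip2 (0.15) in D2 neurons, or Shisa9 (0.14) in cortex against ventral striatum. It called 9 differences that limma did not, Neto1 between the receptors in dorsal striatum, Gria2, Grik2, Grin2a and Grin2b between regions in D1 and Gria1, Gria3 and Shisa7 in D2 neurons, and Grm3 in cortex against dorsal striatum. Replicate numbers were given in accession order and pair no libraries. EM names run in consecutive numbers over the regions of one receptor with the same sexes, in 11 D1 and 8 D2 sets; no label says that a set shares mice. In a check added after the data were seen, the deviations of libraries from their group means correlated above 0.1 in 9 of 11 sets between the D1 striatal regions, 5 of 8 in D2 neurons, and 6 and 7 of 11 between cortex and dorsal or ventral striatum. The median correlation within sets was 0.19, 0.18, 0.13 and 0.11 in that order, against -0.02, 0.03, 0.02 and -0.01 between different sets. The lowest D2 set was at -0.52. In D1 striatum 5 dorsal and 6 ventral libraries of 11 correlated best with their own set, and in D2 striatum 1 dorsal and 3 ventral of 8. Of 11 sets, 4 cortex and 3 dorsal libraries did so between these groups, and 3 cortex and 4 ventral libraries between those. With the set as a replicate block, in these EM libraries, 17 members were called in dorsal minus ventral D1 and 10 in D2 striatum and 27 and 29 in cortex, against 16, 10, 27 and 29 without the block. The D1 Grik3 difference then had an adjusted p of 0.077 (0.15 without the block). Members under about 0.14 CPM are within 3 reads of 0 in the shallowest library.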
